A study of Homo sapiens with 24 samples.

Results

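The 7 genes described here act downstream of the WNK (with no lysine) kinases or move ions across the membrane of the cell. They were chosen by name: the effector kinases STK39 (SPAK) and OXSR1 (OSR1), their scaffold CAB39, the cation-chloride cotransporters SLC12A2 (NKCC1), SLC12A4 (KCC1) and SLC12A7 (KCC4), and ATP1B1, a beta subunit of the Na/K pump. All 7 of 7 were among the 62703 gene identifiers counted, and all 7 were among the 16600 genes that passed the filter on low counts. RNA-seq was done on T/C-28a2, an established human chondrocyte cell line, in 24 libraries with 4 in each of 6 groups. WT Ctr cells were untransfected parental cells in isotonic media. WT Sor cells were the same cells held in media with 100 mM sorbitol for 7 days, a sugar alcohol that raises osmolarity. WNK2 trans Ctr and WNK2 trans Sor cells were parental cells transfected with a plasmid encoding WNK2 for 48 hours and then kept without or with the same sorbitol, and their controls were untransfected cells, with no empty-vector group among the 24 libraries. WNK2- Ctr and WNK2- Sor cells carry a CRISPR/Cas9 deletion of exon 2 of WNK2 and come from 1 clonal line, so that the deletion and any other difference of that clone cannot be told apart.

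WNK kinases sense chloride and cell volume, and when active they phosphorylate SPAK and OSR1, which bind CAB39 (MO25) for full activity. The 2 effector kinases then phosphorylate the SLC12 cotransporters, which activates NKCC1, a carrier of Na, K and Cl into the cell, and inhibits the KCC proteins, carriers of K and Cl out of the cell. The Na/K pump keeps the ion gradients on which these cotransporters run. In cartilage, where osmolarity changes with load, this machinery is part of how chondrocytes hold their volume. Only mRNA was measured in these libraries, so phosphorylation and transport are outside the data.

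The files held 14153002 to 25664619 counts per library, with a median of 17506505.5, and the WNK2- groups were among the deeper ones (18578564 to 25664619). WNK2 itself, which checks the labels, was highest in WT Ctr (1217 to 2568 raw counts) and WNK2 trans Sor (2237 to 3739 raw counts). It was low in WT Sor (266 to 314), in the libraries labelled WNK2 trans Ctr (163 to 290), in WNK2- Ctr (440 to 501) and in WNK2- Sor (322 to 503). The libraries labelled WNK2 trans Ctr therefore held fewer WNK2 counts than their untransfected control, which goes against their label. WT Ctr in turn held more WNK2 than WT Sor (-3.06 ± 0.21 with sorbitol, adjusted p = 1.52e-10). The study, from its own normalized read counts, reports no significant change of WNK2 after sorbitol or after WNK2 transfection. The deposited counts of WT Sor and WNK2 trans Ctr differ from that report, and the cause was not tested. Groups are named by their labels throughout, and directions below that use either isotonic group of the parental cells as a baseline carry that limit. Counts over the whole gene do not show whether exon 2 is present, so they check the WNK2- label only in part. By mean Spearman correlation, 21 of the 24 libraries were closest to their own group, and the other 3 (WT Ctr replicates 1 and 4 and WNK2 trans Sor replicate 1) were closer to another. WT Ctr replicate 2 had the fewest genes detected (17619) and the lowest share of mitochondrial counts (2.21%) of the 24. It was closest to its own group and stays in where those 3 are left out. Of 10 chondrocyte marker genes 6 passed the filter, SOX9 was listed at 0 in all 24 libraries, and the summed level of the 10 was 17.6 to 24.8 CPM (counts scaled to library size) in the WNK2- groups against 57.7 to 168 CPM in the other groups. HAPLN1 made up most of that sum (34.7 to 162 CPM in the other groups). In WNK2 trans Sor, where the sum was highest, HAPLN1 was higher than in WT Sor (0.82 ± 0.12, adjusted p = 1.12e-05), while 4 of the 6 tested markers (ACAN, COL2A1, MATN3 and COMP) were lower, and the same 4 fell with sorbitol under the transfection labels. Of 8 markers of other cell types 3 passed the filter, with CD68, BGLAP and MYOD1 listed at 0 throughout. The study reports altered SOX9 expression by quantitative PCR in this cell line under sorbitol, but no SOX9 mRNA detected in its RNA-seq. Whether a gene listed at 0, SOX9 included, reflects the cells or the annotation used for counting was not tested. The summed level of these 8 markers was higher under sorbitol, at 51.3 to 61.6 CPM against 22.3 to 32.4 in WT cells, 46 to 61.4 against 24.6 to 40.1 under the transfection labels and 23.6 to 31.3 against 9.15 to 13 in WNK2- cells. The endothelial marker PECAM1 held most of it and rose with sorbitol in WT cells (0.97 ± 0.14, adjusted p = 3e-05), in WNK2- cells (1.21 ± 0.15, adjusted p = 2.19e-06) and under the transfection labels (0.68 ± 0.14, adjusted p = 0.000385), and the part of these shifts in the results below was not tested.

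The promoters of 3 genes are shown because their genes moved most or in concert: those of the kinase pair STK39 and OXSR1, and that of ATP1B1. Each runs from 250 bases before to 50 bases after a start site in RefSeq (GRCh38.p14), on the strand of the gene. Capitals mark GGGCGG, the GC box, or its complement CCGCCC, and in addition TGACGTCA, the cAMP response element, in OXSR1 and CCAAT in ATP1B1.
STK39, chr2:168247546-168247845, minus strand: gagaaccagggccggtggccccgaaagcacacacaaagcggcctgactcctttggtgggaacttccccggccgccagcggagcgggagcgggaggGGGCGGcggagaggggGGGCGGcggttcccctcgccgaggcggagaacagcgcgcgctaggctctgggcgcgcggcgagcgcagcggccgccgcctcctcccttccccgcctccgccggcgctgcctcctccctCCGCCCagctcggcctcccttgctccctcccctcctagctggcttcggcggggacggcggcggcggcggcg
OXSR1, chr3:38165287-38165586, plus strand: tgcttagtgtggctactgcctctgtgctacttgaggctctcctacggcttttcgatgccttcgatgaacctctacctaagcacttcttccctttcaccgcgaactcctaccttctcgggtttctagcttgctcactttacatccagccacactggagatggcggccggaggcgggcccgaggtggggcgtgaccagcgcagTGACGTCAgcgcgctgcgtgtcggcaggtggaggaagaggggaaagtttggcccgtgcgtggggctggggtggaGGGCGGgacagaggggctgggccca
ATP1B1, chr1:169106440-169106739, plus strand: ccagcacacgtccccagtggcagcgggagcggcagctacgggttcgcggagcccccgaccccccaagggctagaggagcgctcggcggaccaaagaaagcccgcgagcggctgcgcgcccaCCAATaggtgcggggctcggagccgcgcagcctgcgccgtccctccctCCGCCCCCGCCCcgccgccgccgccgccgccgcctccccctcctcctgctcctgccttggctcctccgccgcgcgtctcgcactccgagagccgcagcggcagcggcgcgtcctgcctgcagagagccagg
All 7 genes had an entry, and the windows of STK39, OXSR1 and ATP1B1 were 77.3%, 62% and 77% G or C. The GC box was found in each of the 3 windows and in 45% of the 35116 promoter windows of the same length. TGACGTCA, which begins 49 bases before the OXSR1 start, was found in 1.85% of all windows, and CCAAT, which begins 129 bases before the ATP1B1 start, in 34.6%, with both strands searched. TGGAAA, the core of the element bound by the osmotic-stress factor NFAT5, was in none of the 3 windows and in 20.7% of all. A match or its absence describes only the letters of these windows.

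Levels were compared between genes only per length, as RPKM (counts scaled by exon length and library size). The mean RPKM over the 24 libraries was 43.1 for ATP1B1, 28.6 for CAB39, 25.1 for OXSR1, 19.2 for SLC12A7, 14.6 for STK39, 11.5 for SLC12A4 and 5.17 for SLC12A2. ATP1B1 lay above 94.1% of the tested genes on this scale and SLC12A2 above 54.9%. Between the highest and the lowest group mean, ATP1B1 varied most (3.98-fold), followed by STK39 (3.04-fold) and SLC12A7 (3-fold), while OXSR1 (1.3-fold) and CAB39 (1.18-fold) varied least. Below, levels are normalized counts, which are counts scaled to a common library size, and differences are log2 fold changes ± SE from edgeR's quasi-likelihood test over all 24 libraries, called at a Benjamini-Hochberg adjusted p under 0.05 over all tested genes.

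**Figure D1:**
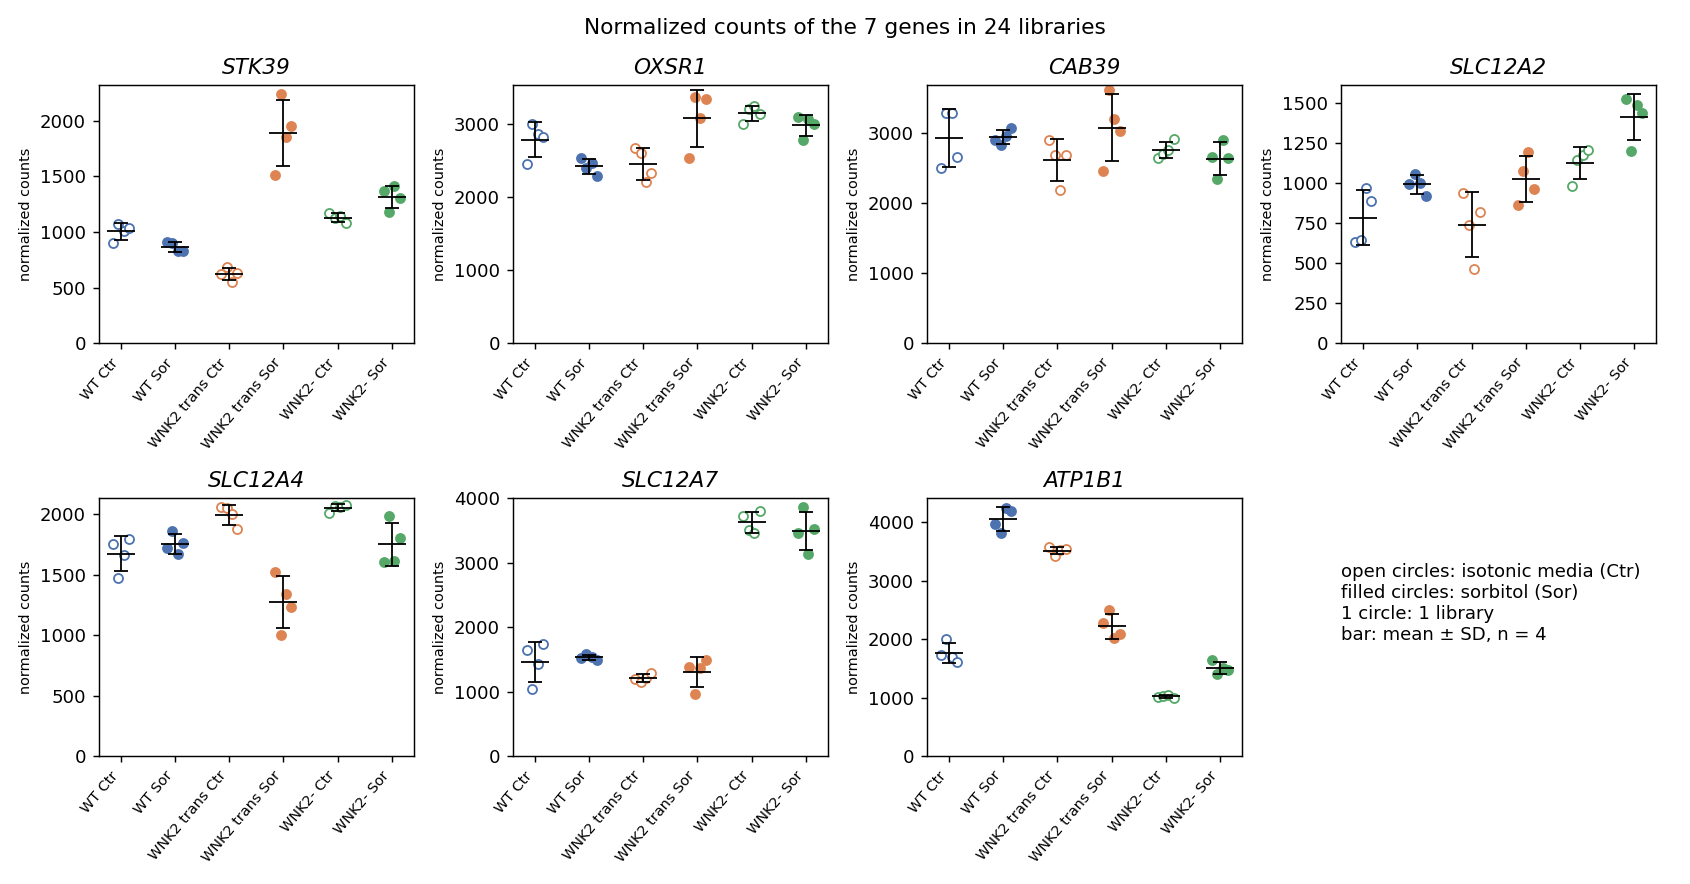
Normalized counts (y axes, from 0) of each gene in the 24 libraries, with 1 circle per library, open for isotonic media and filled for sorbitol, and a bar for the mean ± SD of the 4 libraries in a group. ATP1B1 is highest in WT Sor (3814.73 to 4247.11), STK39 in WNK2 trans Sor (1516.19 to 2237.38) and SLC12A7 in both WNK2- groups (3131.81 to 3866.8).

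STK39 encodes SPAK, an effector kinase that WNKs phosphorylate and activate, and lies on chromosome 2 (167954020 to 168248141, minus strand, GRCh38). Its normalized counts were 902, 1072, 1009 and 1037 in WT Ctr, 911, 897, 833 and 828 in WT Sor, 621, 687, 551 and 627 in the libraries labelled WNK2 trans Ctr, and 1516, 2237, 1855 and 1951 in WNK2 trans Sor. In the WNK2- cells they were 1168, 1128, 1142 and 1080 in isotonic media and 1365, 1176, 1413 and 1304 under sorbitol. The 4 libraries of WNK2 trans Sor lay above all others, and the 4 labelled WNK2 trans Ctr lay below all others. In order, the group means ± SD were 1890 ± 297 in WNK2 trans Sor, 1315 ± 102 in WNK2- Sor, 1130 ± 36.9 in WNK2- Ctr, 1005 ± 73.3 in WT Ctr, 867 ± 43 in WT Sor and 621 ± 55.5 in WNK2 trans Ctr (n = 4 each). The first step (0.52 ± 0.1, adjusted p = 0.000162) and the last (0.48 ± 0.1, adjusted p = 0.00142) passed the test, whereas the 3 steps between the middle groups did not (adjusted p = 0.122 to 0.175).

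OXSR1 encodes OSR1, the close relative of SPAK with overlapping substrates, on chromosome 3 (38165089 to 38255488, plus strand). Its normalized counts ran from 2286 to 2527 in WT Sor (median 2428), from 2197 to 2664 in WNK2 trans Ctr (median 2459), from 2442 to 2997 in WT Ctr (median 2835), from 2774 to 3084 in WNK2- Sor (median 3026), from 2525 to 3369 in WNK2 trans Sor (median 3201) and from 2999 to 3234 in WNK2- Ctr (median 3164). No group differed from its neighbour in the order of means (adjusted p = 0.189 to 0.935), although groups further apart did. CAB39, the scaffold that activates both kinases, ranged from 2183 to 3607 over the 24 libraries. It was called in 0 of the 15 pairs of groups by edgeR's quasi-likelihood test. Among the 7 comparisons of the design, 1 had an unadjusted p under 0.05, that of WNK2 trans Sor with WNK2 trans Ctr (0.24 ± 0.11, adjusted p = 0.0787). That difference passed with upper-quartile factors (0.3, adjusted p = 0.0273), with at least 10 counts required in every library (0.27, adjusted p = 0.0371) and without WNK2 trans Sor replicate 1 (0.31, adjusted p = 0.0162). Under sorbitol CAB39 was lower in WNK2- than in WT cells with the compared groups alone (-0.17, adjusted p = 0.0353) and after correcting for GC content and length (-0.21, adjusted p = 0.00736), against -0.16 ± 0.11 (adjusted p = 0.247) over all libraries.

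The balance of the 2 kinases, as OXSR1 RPKM over STK39 RPKM, was 1.93 ± 0.0439 (SD, n = 4) in WT Ctr, 1.95 ± 0.0838 in WT Sor and 1.95 ± 0.103 in WNK2- Ctr. It was 2.76 ± 0.184 in WNK2 trans Ctr, 1.59 ± 0.0559 in WNK2- Sor and 1.14 ± 0.0617 in WNK2 trans Sor. The last 3 groups did not overlap with one another or with the first 3, and the ratio was given no test.

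SLC12A2 encodes NKCC1, the cotransporter that loads cells with ions as they regain volume, on chromosome 5 (128083766 to 128189688, plus strand). Its normalized counts were 629, 642, 968 and 885 in WT Ctr, 994, 1056, 996 and 916 in WT Sor, 938, 735, 464 and 820 in WNK2 trans Ctr, and 860, 1077, 1195 and 959 in WNK2 trans Sor. They were 984, 1141, 1171 and 1207 in WNK2- Ctr and 1521, 1198, 1488 and 1435 in WNK2- Sor. The WNK2- Sor libraries were the highest as a group, and the WT Ctr and WNK2 trans Ctr libraries spread widely, with coefficients of variation of 22% and 27.2%. No neighbours in the order of means were called (adjusted p = 0.127 to 0.854).

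SLC12A4 encodes KCC1, the widely expressed K-Cl exporter, on chromosome 16 (67943474 to 67969601, minus strand), where it shares 4.05% of its exon bases with LCAT. Its normalized counts were 1758, 1472, 1665 and 1796 in WT Ctr, 1723, 1861, 1672 and 1763 in WT Sor, 2057, 2050.0, 1998 and 1876 in WNK2 trans Ctr, and 1520, 1004, 1337 and 1230 in WNK2 trans Sor. They were 2010, 2069, 2063 and 2073 in WNK2- Ctr and 1607, 1983, 1611 and 1805 in WNK2- Sor. WNK2 trans Sor was the lowest group, although its replicate 1 lay above the lowest WT Ctr library. That step from WT Ctr to WNK2 trans Sor was the 1 of 5 between neighbours that passed the test (0.39 ± 0.1, adjusted p = 0.00279).

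SLC12A7 encodes KCC4, a K-Cl exporter of the same family, near the end of the short arm of chromosome 5 (1050376 to 1112035, minus strand). Its normalized counts were 3732, 3513, 3465 and 3806 in WNK2- Ctr and 3459, 3867, 3132 and 3521 in WNK2- Sor. In the 4 other groups the 16 libraries ran from 957 to 1738. The WNK2- libraries therefore lay above all others with no overlap. Their mean, 3629 ± 165 in isotonic media and 3495 ± 301 under sorbitol, was followed by 1535 ± 37.1 in WT Sor, 1464 ± 311 in WT Ctr, 1300 ± 235 in WNK2 trans Sor and 1211 ± 59.7 in WNK2 trans Ctr, and among these last 4 no neighbours differed (adjusted p = 0.292 to 0.733).

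ATP1B1 encodes the beta1 subunit, which carries the catalytic alpha subunit of the Na/K pump to the membrane, on chromosome 1 (169105697 to 169132722, plus strand), where it shares 6.48% of its exon bases with NME7 on the other strand. Its normalized counts were 1732, 1998, 1686 and 1600 in WT Ctr, 3971, 3815, 4247 and 4189 in WT Sor, 3577, 3422, 3518 and 3544 in WNK2 trans Ctr, and 2283, 2495, 2011 and 2082 in WNK2 trans Sor. They were 1013, 1032, 1050 and 985 in WNK2- Ctr and 1639, 1395, 1507 and 1465 in WNK2- Sor. Of the 15 pairs of groups 14 were called. Beyond the 7 comparisons below, the pairs called 39.2% of all tested genes for WNK2 trans Sor with WT Ctr, 51.9% for WNK2- Sor with WT Ctr, 15.1% for WNK2 trans Ctr with WT Sor and 42% for WNK2- Ctr with WT Sor. The share was 47.7% for WNK2- Ctr and 55.8% for WNK2- Sor with WNK2 trans Ctr, and 37.3% and 33.3% with WNK2 trans Sor. The exception among the calls was the pair at the top, where WT Sor (4055 ± 200) lay above WNK2 trans Ctr (3515 ± 66.8) in every library but the difference did not pass (0.21 ± 0.08, adjusted p = 0.0859).

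The first comparison asked how WT chondrocytes respond to a week of sorbitol. ATP1B1 rose 2.31-fold (1.21 ± 0.08, adjusted p = 1.18e-10) and was higher in 4 of 4 libraries than in any WT Ctr library. It was the 1 of 7 genes called, where 24.1% of all tested genes were called and 25.7% did not overlap. In bulk RNA a lower or higher level in fewer or more of the cells and a change of RNA per cell cannot be told apart. The kinases STK39 (-0.21 ± 0.1, adjusted p = 0.122) and OXSR1 (-0.2 ± 0.09, adjusted p = 0.104) and the importer SLC12A2 (0.34 ± 0.16, adjusted p = 0.127) had 95% intervals that just left 0, from -0.42 to -0.01, from -0.38 to -0.02 and from 0.01 to 0.67. The exporters SLC12A4 and SLC12A7 differed by 0.07 each, with intervals from -0.13 to 0.27 and from -0.19 to 0.33. These values rest on the label of WT Ctr. Set against the other isotonic group of parental cells, the libraries labelled WNK2 trans Ctr, WT Sor differed in ATP1B1 by 0.21 ± 0.08 (adjusted p = 0.0859) and was higher in STK39 by 0.48 ± 0.1 (adjusted p = 0.00142). Without the 3 libraries closer to another group OXSR1 also passed (-0.27, adjusted p = 0.0196), and so it did without WT Ctr replicate 1 alone (-0.25, adjusted p = 0.0471), as did SLC12A2 without WT Ctr replicate 3 (0.48, adjusted p = 0.0452). A correction of each library for its trend with GC content and gene length called 5 of the 7, while the number of all genes called went from 4008 to 6084, with STK39 at -0.25, OXSR1 at -0.27, SLC12A2 at 0.26 and SLC12A4 at -0.24, the last with its sign turned.

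In WNK2- cells the same sorbitol treatment raised ATP1B1 1.47-fold (0.56 ± 0.08, adjusted p = 2.18e-05), again in 4 of 4 libraries without overlap. It was the 1 gene of 7 called, where 14.9% of all tested genes were called, and 1 of 3 without overlap beside STK39 and SLC12A4, where 28.4% of all tested genes had none. By the labels, the rise was smaller than in WT cells by 0.65 on the log2 scale (genotype by sorbitol interaction -0.65 ± 0.11, adjusted p = 0.000607). This interaction was the 1 of 7 called, against 8.65% of all tested genes. STK39 was 0.22 ± 0.1 higher in WNK2- cells with sorbitol and 0.21 lower in WT cells. Its interaction of 0.43 ± 0.14 missed the threshold (adjusted p = 0.0534) but passed in 10 of 27 alternatives. Both interactions rest on the label of WT Ctr. Against the libraries labelled WNK2 trans Ctr, WT Sor was higher in ATP1B1 by only 0.21 ± 0.08 (adjusted p = 0.0859). Its STK39 was then higher by 0.48 ± 0.1 (adjusted p = 0.00142), and an interaction with that baseline was not tested. Fitted on the compared groups alone, the WNK2- comparison also called STK39 (0.22, adjusted p = 0.0326), SLC12A2 (0.32, adjusted p = 0.0099) and SLC12A4 (-0.23, adjusted p = 0.0323).

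Under the transfection labels 5 of 7 genes were called with sorbitol, where 48% of all tested genes were called. STK39 rose 3.04-fold (1.6 ± 0.1, adjusted p = 2.04e-12), OXSR1 rose 1.26-fold (0.33 ± 0.09, adjusted p = 0.0036) and SLC12A2 rose 1.38-fold (0.47 ± 0.16, adjusted p = 0.0187). SLC12A4 fell 1.57-fold (-0.65 ± 0.1, adjusted p = 8.03e-06), and ATP1B1 fell 1.58-fold (-0.66 ± 0.08, adjusted p = 2.63e-07), the opposite of its direction in the other cells. STK39, SLC12A4 and ATP1B1 did not overlap between the groups, as in 34.4% of all tested genes, whereas OXSR1 and SLC12A2 did. The libraries labelled WNK2 trans Ctr are the baseline here, and their WNK2 counts go against the label. The calls of OXSR1 (0.1, adjusted p = 0.173) and SLC12A2 (0.2, adjusted p = 0.087) were lost with the GC content and gene length correction, and SLC12A2 was lost without WNK2 trans Ctr replicate 3 (0.31, adjusted p = 0.0757) or WNK2 trans Sor replicate 3 (0.38, adjusted p = 0.0805).

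By the labels, the response to sorbitol differed between transfected and untransfected cells in 4 of 7 genes, against 35.5% of all tested genes. The interaction was 1.82 ± 0.14 for STK39 (adjusted p = 3.35e-10), 0.53 ± 0.13 for OXSR1 (adjusted p = 0.00189), -0.72 ± 0.14 for SLC12A4 (adjusted p = 0.00028) and -1.87 ± 0.11 for ATP1B1 (adjusted p = 4.12e-12). Both kinases had a positive interaction, and the exporter and the pump subunit a negative one. These directions depend on which isotonic group is taken as transfected, where the WNK2 counts go against the labels. Against WT Ctr, WNK2 trans Sor was higher in STK39 by 0.91 ± 0.1 (adjusted p = 9.32e-08) and in ATP1B1 by 0.34 ± 0.08 (adjusted p = 0.00183) and lower in SLC12A4 (-0.39), and OXSR1 was 0.15 ± 0.09 (adjusted p = 0.196). The interaction with the isotonic groups exchanged was not tested. For SLC12A4 it was -0.07 (adjusted p = 0.604) after the GC content and gene length correction, which gave SLC12A7 an interaction of 0.66 (adjusted p = 1.05e-05) in place of 0.03 ± 0.18 (adjusted p = 0.907).

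**Figure D2:**
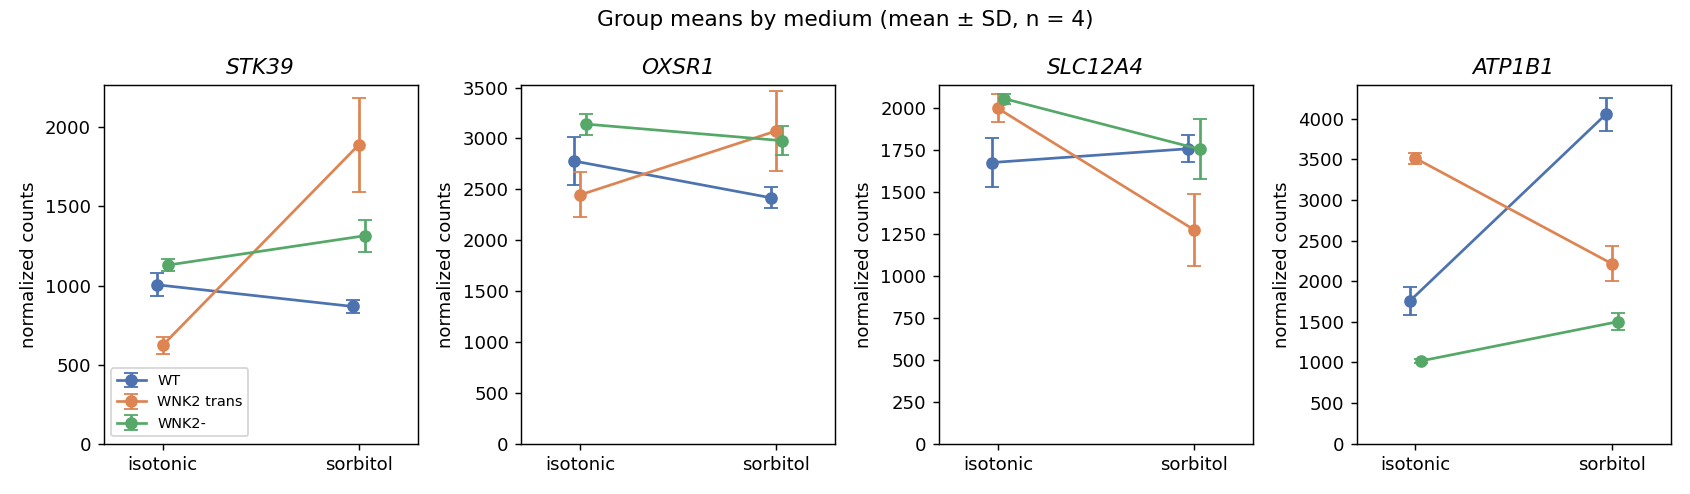
Mean normalized counts ± SD (n = 4, y axes from 0) of 4 genes in isotonic media and under sorbitol, with 1 line each for WT, WNK2 trans and WNK2- cells. The ATP1B1 line rises in WT (1754 to 4055) and WNK2- cells (1020.0 to 1501) and falls under the transfection labels (3515 to 2218), where the STK39 line rises from 621 to 1890.

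Genotype was compared within each medium, and the 2 comparisons use different libraries. In isotonic media 4 of 7 genes differed between WNK2- and WT cells, where 42.1% of all tested genes were called. SLC12A7 was 2.48-fold higher (1.31 ± 0.13, adjusted p = 7.99e-09), SLC12A2 1.44-fold higher (0.53 ± 0.16, adjusted p = 0.0101) and SLC12A4 1.23-fold higher (0.3 ± 0.1, adjusted p = 0.018) in WNK2- cells. ATP1B1 was 1.72-fold lower (-0.78 ± 0.08, adjusted p = 2.96e-08). All 4 genes were without overlap between the groups, and so were STK39 (0.17 ± 0.1, adjusted p = 0.175) and OXSR1 (0.18 ± 0.09, adjusted p = 0.113), which were not called. Non-overlap held for 36.9% of all tested genes. The call of SLC12A4 was lost without WT Ctr replicate 2 (0.24, adjusted p = 0.0823) and with the GC content and gene length correction (0.16, adjusted p = 0.0771). The set of calls also rests on the label of WT Ctr. Against the libraries labelled WNK2 trans Ctr, where 47.7% of all tested genes were called, SLC12A4 differed by 0.04 ± 0.1 (adjusted p = 0.757). STK39 (0.86 ± 0.1, adjusted p = 9.85e-08) and OXSR1 (0.36 ± 0.09, adjusted p = 0.00161) were then called higher in WNK2- Ctr. SLC12A7 (1.58), SLC12A2 (0.61) and ATP1B1 (-1.78) were called in the same direction as against WT Ctr.

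Under sorbitol 5 of 7 genes differed by genotype, where 46.3% of all tested genes were called. SLC12A7 was 2.28-fold higher in WNK2- cells (1.19 ± 0.13, adjusted p = 2.45e-08), STK39 1.52-fold higher (0.6 ± 0.1, adjusted p = 1.87e-05), SLC12A2 1.42-fold higher (0.51 ± 0.16, adjusted p = 0.0107) and OXSR1 1.23-fold higher (0.3 ± 0.09, adjusted p = 0.0072). ATP1B1 was 2.7-fold lower (-1.43 ± 0.08, adjusted p = 2.55e-13). These 5 genes did not overlap between the groups, as in 53.9% of all tested genes. SLC12A4 had the same mean in both genotypes to within 0.2% (difference 0 ± 0.1, interval -0.21 to 0.2), although the GC content and gene length correction gave 0.24 (adjusted p = 0.00605).

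Genes on either side of SLC12A7 were read in the same comparisons. Of its 39 tested neighbours between positions 92151 and 10308026 of chromosome 5, 28 were higher and 2 lower in WNK2- Ctr than in WT Ctr, and 28 were higher and 3 lower under sorbitol. Higher calls made up 20.7% and 23.7% of all tested genes in these comparisons. The median log2 fold change of the neighbours was 0.96 in both media, against 0 and 0.02 over all tested genes. For each of the 6 other genes, the median of 50 neighbours lay between -0.1 and 0.23 in these comparisons. In the comparisons that do not involve the WNK2- line, the neighbours of SLC12A7 had medians of -0.1 to 0.1. Gene copy number was not measured in these libraries. The Na/H exchanger SLC9A3, from the list of pathway genes, is 1 of these neighbours and was higher in WNK2- cells by 1.39 ± 0.55 (adjusted p = 0.0437) in isotonic media and by 2.1 ± 0.52 (adjusted p = 0.00184) under sorbitol, from mean levels of only 3.46 to 22.5 normalized counts.

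**Figure D3:**
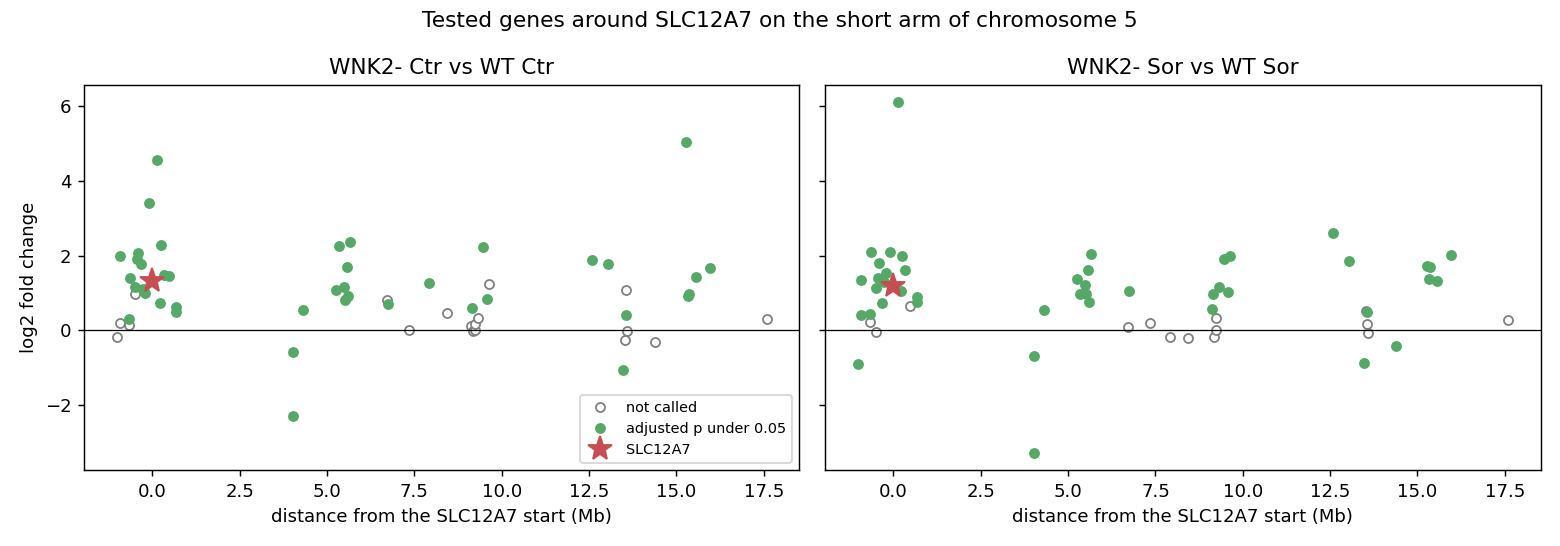
Log2 fold changes (y axis) of the tested genes within 20 Mb of SLC12A7 on the short arm of chromosome 5 against their distance in Mb from the start of SLC12A7 (x axis), for WNK2- against WT cells in isotonic media (left) and under sorbitol (right), with filled points for an adjusted p under 0.05 and a star for SLC12A7 (1.31 and 1.19). Most points lie above 0, as in the 17 of 21 genes within 2 Mb that were called higher in each panel.

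Transfection was compared within each medium as well. In isotonic media 2 of 7 genes differed, where 12.5% of all tested genes were called. In the libraries labelled WNK2 trans Ctr, ATP1B1 was 2-fold higher (1 ± 0.08, adjusted p = 2.6e-09) and STK39 1.62-fold lower (-0.69 ± 0.1, adjusted p = 2.26e-05) than in WT Ctr, with no overlap for either or for SLC12A4, as in 12.3% of all tested genes. This comparison shares the WT Ctr libraries with that of sorbitol in WT cells, where the ATP1B1 value was 1.21 ± 0.08. Without the 3 libraries closer to another group, 2 of them in WT Ctr, 5 of the 7 genes were called, with OXSR1 at -0.25, CAB39 at -0.32 and SLC12A4 at 0.35. SLC12A7, at -0.27 ± 0.13 (adjusted p = 0.167), passed without WT Ctr replicate 2 (-0.4, adjusted p = 0.0196) and with the GC content and gene length correction (-0.48, adjusted p = 2.24e-05).

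Under sorbitol 4 of 7 genes differed between transfected and untransfected cells, where 31.7% of all tested genes were called. STK39 was 2.18-fold higher in WNK2 trans Sor than in WT Sor (1.12 ± 0.1, adjusted p = 4.22e-09) and OXSR1 1.27-fold higher (0.35 ± 0.09, adjusted p = 0.00419). ATP1B1 was 1.83-fold lower (-0.87 ± 0.08, adjusted p = 1.1e-08) and SLC12A4 1.38-fold lower (-0.46 ± 0.1, adjusted p = 0.000871). All but OXSR1 of these 4, and SLC12A7, did not overlap between the groups, as in 30.3% of all tested genes. WNK2 itself was 3.33 ± 0.21 higher in these libraries, in the direction of their label. The SLC12A4 difference was -0.06 (adjusted p = 0.543) after the GC content and gene length correction.

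**Figure D4:**
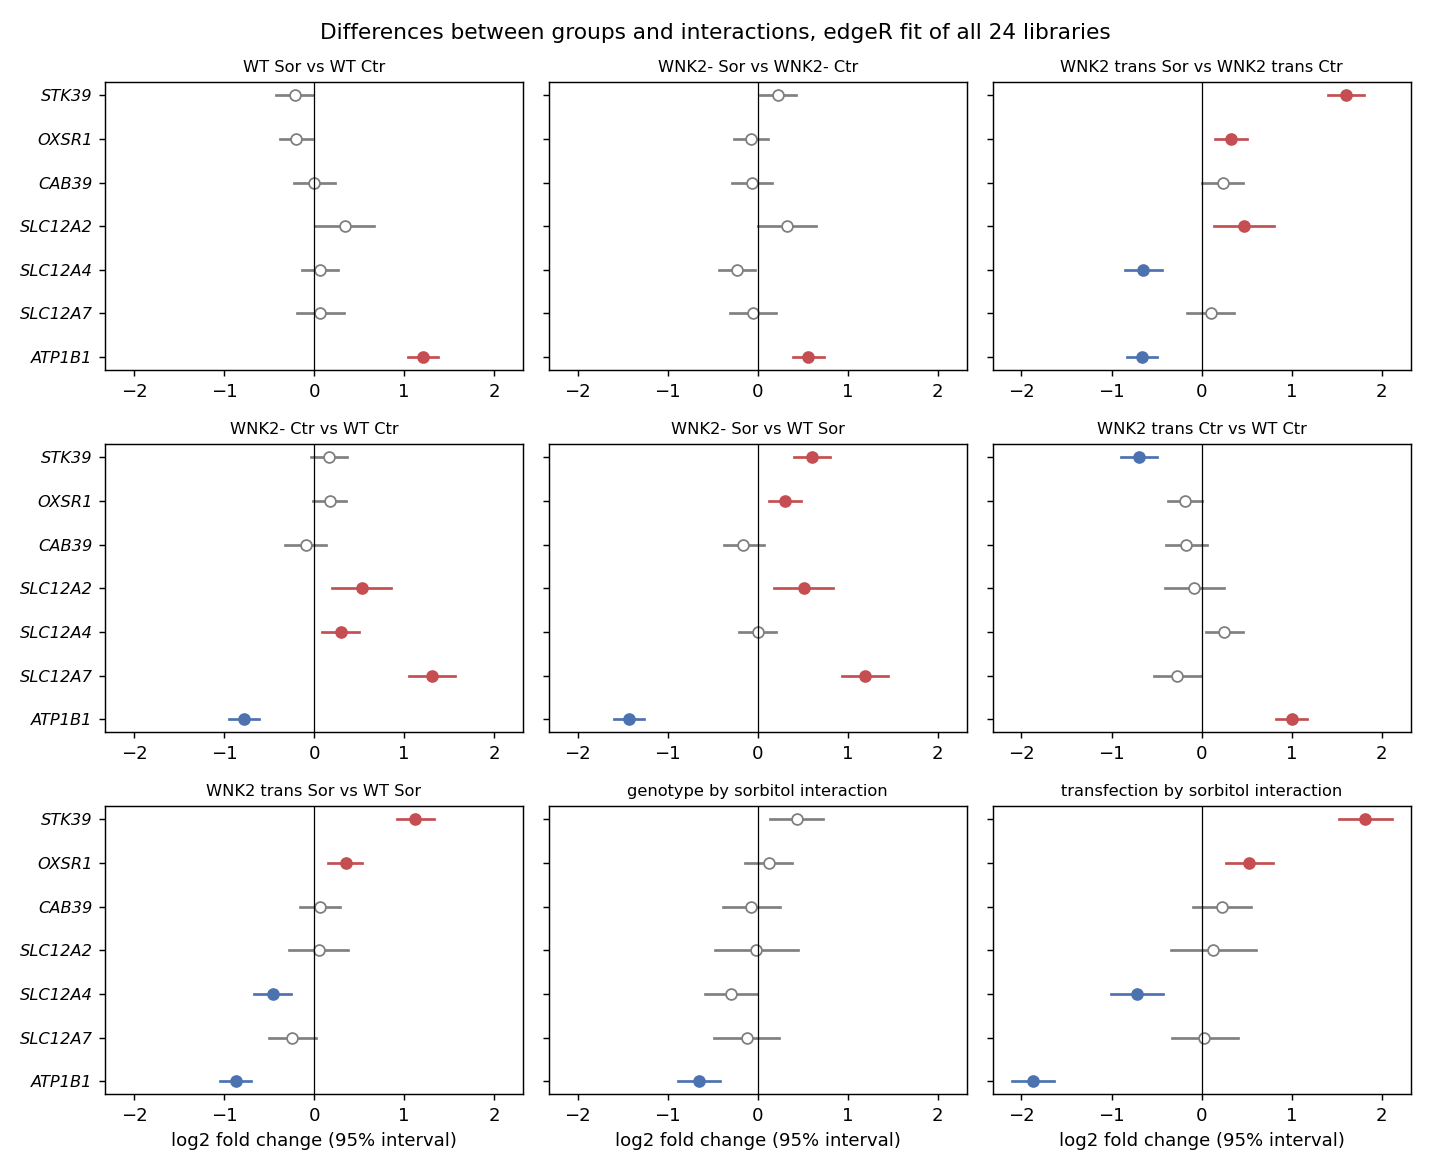
Log2 fold changes (x axes) with 95% intervals for the 7 genes in the 7 comparisons and 2 interactions, red where called higher, blue where called lower and open grey where not called. ATP1B1 is called in all 9 panels, from -1.87 to 1.21, and CAB39 in none.

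Other genes of the pathway were read as 4 lists with 41 genes, of which 30 passed the filter. Sorbitol raised 8 and lowered 3 of the 30 in WT cells, raised 7 and lowered 0 in WNK2- cells, and raised 10 and lowered 4 under the transfection labels, where 24.1%, 14.9% and 48% of all tested genes were called. Among 13 WNK kinases and regulators of the SPAK and OSR1 step, 12 were tested. In WT cells sorbitol raised 3 and lowered 2 of them, including a rise of SGK1 (0.86 ± 0.08, adjusted p = 2.47e-08), a kinase induced by osmotic stress, and of WNK4 (0.91 ± 0.12, adjusted p = 8.72e-06). In WNK2- cells it raised 3 and lowered 0 of the 12, with SGK1 at 0.65 ± 0.08 (adjusted p = 1.59e-06), WNK4 at 0.44 ± 0.12 (adjusted p = 0.0132) and NEDD4L, an E3 ubiquitin ligase of ion channels, at 0.91 ± 0.11 (adjusted p = 1.05e-06). Under the transfection labels 5 rose and 0 fell, with NEDD4L at 2.59 ± 0.11 (adjusted p = 2.68e-15). WNK1, the most widely expressed kinase of the family, stayed between mean RPKM values of 24.6 and 32.1 and was called in none of the 7 comparisons.

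NEDD4L moved with genotype too. Its mean was 1406 normalized counts in WT Ctr and 3217 in WNK2- Ctr (1.19 ± 0.11, adjusted p = 2.96e-09), and 1387 in WT Sor, 6052 in WNK2- Sor (2.13 ± 0.11, adjusted p = 4.95e-14) and 4833 in WNK2 trans Sor. Its genotype by sorbitol interaction was 0.93 ± 0.15 (adjusted p = 0.000268). Of the 12 genes of this list 7 were called by genotype in isotonic media, 4 higher and 3 lower, and 3 under sorbitol, 1 higher and 2 lower, where 42.1% and 46.3% of all tested genes were called. Transfection went with 1 higher and 2 lower calls in isotonic media and with 3 higher calls under sorbitol, where 12.5% and 31.7% of all tested genes were called. WNK2, the deleted and transfected gene, is in this list and among its calls by genotype in isotonic media and by transfection in both media. It is also among the genes that sorbitol lowered in WT cells (-3.06 ± 0.21). Under the transfection labels its mean went from 252 to 3033 normalized counts with sorbitol, where the lower value goes against the label.

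Of the 6 other SLC12 genes 5 were tested, and SLC12A3, the Na-Cl cotransporter of the kidney, had at most 14 counts in a library. SLC12A8 rose with sorbitol in WT cells (0.74 ± 0.13, adjusted p = 0.000162), fell under the transfection labels (-1.1 ± 0.13, adjusted p = 1.25e-07) and was lower in WNK2- cells by 0.92 in isotonic media (-0.92 ± 0.13, adjusted p = 4.35e-06) and by 1.68 under sorbitol (-1.68 ± 0.13, adjusted p = 9.28e-11). Its genotype by sorbitol interaction was -0.76 ± 0.18 (adjusted p = 0.00986). The directions with sorbitol and this interaction rest on the labels of the isotonic parental groups. Mean normalized counts of SLC12A8 were 268 in WT Ctr, 449 in WT Sor, 486 in WNK2 trans Ctr and 227 in WNK2 trans Sor. In WNK2- cells they were 142 in isotonic media and 140 under sorbitol. An interaction with the isotonic groups exchanged was not tested. In WT cells sorbitol raised 2 of the 5 and lowered 0, in WNK2- cells it raised 1 and lowered 0, and under the transfection labels it raised 1 and lowered 2. In these comparisons 24.1%, 14.9% and 48% of all tested genes were called.

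Of 10 genes in the list of Na/H exchangers, carriers that trade Na for protons, 9 were tested. Sorbitol raised 2 and lowered 1 of the 9 in WT cells. In WNK2- cells it raised 1, SLC9A7, an exchanger of the Golgi (0.32 ± 0.1, adjusted p = 0.0215). Under the transfection labels it raised 3 and lowered 1, with SLC9A7 at 1.01 ± 0.1 (adjusted p = 5.37e-09). Of all tested genes 24.1%, 14.9% and 48% were called in these comparisons. By genotype, 2 were higher and 1 lower in isotonic media, and 3 were higher and 3 lower under sorbitol, again where 42.1% and 46.3% of all tested genes were called.

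Of 12 other Na/K pump subunits and FXYD proteins only 4 were tested. Sorbitol raised 1 of them in WT cells, raised 2 in WNK2- cells, and raised 1 and lowered 1 under the transfection labels. The shares of all tested genes called there were 24.1%, 14.9% and 48%. The second ubiquitous beta subunit, ATP1B3, rose with sorbitol in WNK2- cells (0.36 ± 0.09, adjusted p = 0.00942) and under the transfection labels (0.49 ± 0.09, adjusted p = 0.000136), with 0.09 ± 0.09 (adjusted p = 0.534) in WT cells. The RPKM ratio of ATP1B1 to ATP1B3 was 0.335 ± 0.0266 in WT Ctr, 0.72 ± 0.0185 in WT Sor, 0.689 ± 0.0497 in WNK2 trans Ctr, 0.308 ± 0.0229 in WNK2 trans Sor, 0.172 ± 0.00758 in WNK2- Ctr and 0.197 ± 0.00999 in WNK2- Sor. ATP1B2, the glial beta subunit, was lower in WNK2- than in WT cells by 3.36 in isotonic media (-3.36 ± 0.16, adjusted p = 1.73e-14) and by 2.75 under sorbitol (-2.75 ± 0.15, adjusted p = 7.46e-14), and it fell with sorbitol under the transfection labels (-2.44 ± 0.14, adjusted p = 3.42e-13).

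Over the 24 libraries, log2 CPM of the 7 genes were related as follows, given as a description since libraries of a group share its treatment. STK39 and OXSR1 went together (Pearson r = 0.77), STK39 and SLC12A4 went apart (r = -0.72), and ATP1B1 went against OXSR1 (r = -0.72) and SLC12A7 (r = -0.76). The genes whose pattern was most like that of a member were RAI14 for STK39 (r = 0.97), NAA15 for OXSR1 (r = 0.96), IBTK for CAB39 (r = 0.92), AFF1 for SLC12A2 (r = 0.96), RXRA for SLC12A4 (r = 0.96), ANGEL1 for SLC12A7 (r = 0.98) and TMOD1 for ATP1B1 (r = 0.97), each the highest among tested genes whose mean log2 CPM reached 3.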

How the data were processed

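Poly(A)-enriched RNA of 24 T/C-28a2 samples was sequenced. The deposited values are raw counts per Ensembl gene identifier that the authors made with HTSeq, without normalization. The submitters' processing notes name FastQC 0.11.9, HISAT2 2.2.1, HTSeq 2.0.2, DESeq2 1.38.3 and GRCh38, and the study's methods name other versions of HTSeq and DESeq2. The strand setting and the annotation release are not given in the sources used here. Of 62703 identifiers 62625 had a symbol and 58279 a GENCODE 29 position, from which chromosomes, exon lengths and overlaps were taken. Groups follow the sample labels.

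Counts were fitted with edgeR 4.0.16 (R 4.3.3) over all 24 libraries with 6 group means, TMM factors and filterByExpr (minimum count 10, minimum total 15), and 7 comparisons and 2 interactions were tested with its quasi-likelihood test (two-sided), adjusted by Benjamini-Hochberg over 16600 genes. A normalized count is the raw count over the TMM-scaled library total, put on the scale of the mean such total. RPKM uses exon length, and log2 CPM a prior count of 2. The test was checked on data simulated for sorbitol in WT cells, with changes planted in randomly drawn genes. It recovered 69.1% of changes of 1 and 18.4% of changes of 0.5 on the log2 scale, and 2.3% of its calls were false. The design and samples come from the study's pairwise and interaction models. The study describes the 4 samples of a group as biological replicates, while the labels do not tie them to separate cultures. Where they share a culture, p-values measure only a technical spread. No pair of libraries agreed within sampling noise.

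The 7 genes and all gene lists were chosen with earlier results of these data known. Besides the 7, the text names the targeted gene, from each list at most the 3 tested genes with the smallest p in a comparison or a gene that defines a family, and genes most like a member by Pearson correlation. Promoter windows come from RefSeq. The alternatives were no filter, RLE or upper-quartile factors, DESeq2, a stricter filter, the compared groups alone, a minimum log2 change of 0.3, adjustment for GC content and gene length (natural splines with 5 degrees of freedom, 96.3% of tested genes with both), thinning to 14153002 counts, a replicate block and leaving out each library. Leaving out the 3 libraries closer to another group was chosen after seeing the data. Expression of transfected plasmid and endogenous WNK2 cannot be told apart in these counts. Results of some genes of the pathway lists are not reported here, although the lists' counts include them.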

Additional observations from a re-analysis of the deposited data

Results flagged for a closer look

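In 1 of 42 groups of 4 libraries a library stood apart from the other 3 by Dixon's ratio, where chance gives about 1 in 20: SLC12A4 in WNK2- Ctr replicate 1 had 2009.64 normalized counts, below 2062.82 to 2073.34 in the other libraries of a very tight group (gap ratio 0.835). The response to sorbitol differed between cells in 5 results, each by the test of the interaction itself. By genotype this was ATP1B1 (-0.65), a value that rests on the label of WT Ctr. By transfection it was STK39 (1.82), OXSR1 (0.53), SLC12A4 (-0.72) and ATP1B1 (-1.87), where the libraries labelled WNK2 trans Ctr, whose WNK2 counts go against the label, enter each value.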

How the results depend on the processing

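The calls of ATP1B1 in all comparisons, of SLC12A7 by genotype and of STK39 kept their direction and side of the threshold in every alternative run. Of the values of single genes under alternatives 1212 kept both, 37 gained a call, 17 lost one and 43 changed sign. With DESeq2, RLE or upper-quartile factors, at least 10 counts in every library, the compared groups alone, the GC content and gene length correction or thinning, 2 members were called in the genotype by sorbitol interaction. SLC12A4 in WNK2- Sor against WT Sor was 0.02 with the first 4 of these. With the compared groups alone, sorbitol in WNK2- cells called 4824 genes and 4 members, and WNK2 trans Ctr against WT Ctr called 747 genes, in place of 2473 and 2082. Requiring a change of at least 0.3 left 1421 genes for sorbitol in WT cells, 1018 in WNK2- cells and 5310 (3 members) under the transfection labels, 4378 (2 members) for WNK2- Ctr against WT Ctr, 3 members for WNK2- Sor against WT Sor, 804 genes for WNK2 trans Ctr and 2642 (2 members) for WNK2 trans Sor against WT, and 522 for the genotype interaction. The GC content and gene length correction called 6084 genes (5 members) for sorbitol in WT cells, of which 28.6% were higher in place of 47.2% of 4008, 4353 (3 members) in WNK2- cells, 36.6% higher in place of 55.4%, and 2307 (2 members) for the genotype interaction, 58.6% higher in place of 46.2% of 1436. It also turned the sign for sorbitol in WT cells of SLC12A4 (-0.24) and SLC12A7 (-0.18), of SLC12A7 in WNK2- cells (0.02), of SLC12A4 in WNK2- Sor against WT Sor (0.24), of CAB39 (-0.08), SLC12A2 (-0.12) and SLC12A7 (0.18) in WNK2 trans Sor against WT Sor, of SLC12A4 (0.09) and SLC12A7 (0.19) in the genotype interaction and of SLC12A2 (-0.06) in the transfection interaction. Thinning gave SLC12A2 0.05 in the genotype interaction. Without the 3 libraries closer to another group, a choice made after seeing the data that lowers the spread by its construction, 6145 genes (2 members) were called for sorbitol in WT cells, 4921 (5 members) for WNK2 trans Ctr against WT Ctr and 4276 (3 members) for the genotype interaction, and signs turned for CAB39 with sorbitol in WT cells (-0.15) and in the genotype interaction (0.07), SLC12A2 in the genotype interaction (0.01) and SLC12A7 in the transfection interaction (-0.27). Apart from that last choice, the cause of these differences was not tested.

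With each library left out in turn there were 2761 to 4259 genes and 1 to 2 members for sorbitol in WT cells, 1840 to 2155 and 1 in WNK2- cells, 7117 to 8765 and 4 to 6 under the transfection labels, 6155 to 6963 and 3 to 4 for WNK2- Ctr and 6898 to 7269 and 5 for WNK2- Sor against WT, 1489 to 2684 and 2 to 3 for WNK2 trans Ctr and 4032 to 6628 and 4 for WNK2 trans Sor against WT, 849 to 1908 and 1 to 2 for the genotype interaction and 5156 to 6907 and 4 for the transfection interaction. Signs turned in these fits, with no call among those turned, for CAB39 with sorbitol in WT cells (-0.06 to 0.08) and in WNK2 trans Sor against WT Sor (-0.03 to 0.14), SLC12A7 with sorbitol in WT cells (-0.06 to 0.17) and in the transfection interaction (-0.08 to 0.15), SLC12A4 in WNK2- Sor against WT Sor (-0.07 to 0.04), and SLC12A2 in WNK2 trans Ctr (-0.21 to 0.09) and WNK2 trans Sor (-0.04 to 0.1) against WT, the genotype interaction (-0.16 to 0.06) and the transfection interaction (-0.04 to 0.24). Whether the replicate numbers pair the samples was not settled. Of 60 same-number pairs 10 had correlated deviations over 0.1 (-0.29 to 0.46). The mean correlation was 0 for same-number and for different-number pairs. Among the 4 numbers, 11 of 24 libraries were closest to their own. With the replicate block 3894, 2350, 7890, 6859, 7568, 2005, 5155, 1323 and 5789 genes were called in the 7 comparisons and 2 interactions, and the number of members called was the same in each.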
